A study of Mus musculus with 44 samples.

Results

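The sebaceous gland lipid genes described here were Scd1, Scd3, Mgst1, Awat1, Awat2, Elovl3, Far2, Soat1, Mc5r and Fads2, chosen by name for what they do. They are 10 of the 43411 genes in the table, found by their Ensembl identifiers, and all 10 had a mean normalized count above 3 and were tested. The study followed bleomycin-induced skin fibrosis, in which the DNA-damaging drug bleomycin is injected under the skin until collagen builds up in the dermis. All 44 mice were wild-type C57Bl/6 females, 8 weeks old at the start, injected daily in the back skin with 100 µL. Groups of 10 mice were given saline, 1 U/mL bleomycin for 2 weeks or the same dose for 4 weeks. The study's methods give this concentration, while a supplementary figure legend of the study gives a lower one. A further 6 mice were left untreated for 6 weeks after bleomycin ended, and 8 for 10 weeks. The study's methods give both of these groups 4 weeks of injections first. How long saline was given, and when these mice were taken, is not given in the sources used here. The other groups differ in time since the start. Age, time and hair cycle stage therefore cannot be told apart from group. RNA came from whole skin, so each value mixes gland, epidermis, hair follicle, fat, muscle, fibroblasts and blood-derived cells.

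Sebaceous glands sit beside hair follicles, and their cells fill with lipid until they burst and release it as sebum. Making sebum starts with fatty acids, which are lengthened by elongases and given double bonds by desaturases, partly in patterns found in few other tissues. Fatty acids are also reduced to fatty alcohols, and wax synthases join the alcohols to fatty acids as wax esters, while sterol esters are made by a separate acyltransferase. Melanocortin 5 receptor on the gland's cells is known for its part in sebum output. Fat cells share part of this machinery, above all the desaturase Scd1.

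Each mouse had between 8509094 and 15285577 recovered reads. The members held a median of 0.446% of reads in saline mice, 0.196% and 0.188% after 2 and 4 weeks of bleomycin, and 0.425% and 0.389% after 6 and 10 weeks of recovery. Other tissues varied as well. The summed level of 17 growing hair follicle genes, keratins and related proteins made while a hair grows, had a median of 49832 normalized counts in saline (2508 to 300972) but 80.6 (65.1 to 2266) after 2 weeks and 86.4 (67.1 to 6884) after 4 weeks. It was 13677 (149 to 138272) and 123396 (1598 to 221907) in the recovery groups. For 14 fat cell genes the median sum was 62395 in saline (32572 to 72963), 47134 (25418 to 59432) and 46180 (35372 to 55751) with bleomycin, and 64673 (52229 to 75056) and 74110 (55289 to 108001) in recovery. The brown fat gene Ucp1 was at most 2.89 in any mouse. As a sum, epidermal genes were abundant in every mouse (182217 to 397807), although in every group 1 of the 14 had a median at or under 3 reads. A pair of mice stood apart. Saline mouse 1 had the highest hair follicle sum of its group. It also had the lowest sums of fat cell, epidermal, muscle, fibroblast and macrophage genes. The 2-week mouse 2 had the lowest fat cell sum and the highest macrophage sum of its group. Counts are therefore also given for the 42 other mice.

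The start of 4 of the genes is shown to place them. RefSeq promoter windows were used for 7 of the 10 members. Shown here are the 120 bases before the start for the 4 genes whose RefSeq and GENCODE starts lie close together, read 5′ to 3′ along the gene's strand on build GRCm38.p6, with the letters CCAAT in capitals.
Scd3, chr19:44203149-44203268, plus strand: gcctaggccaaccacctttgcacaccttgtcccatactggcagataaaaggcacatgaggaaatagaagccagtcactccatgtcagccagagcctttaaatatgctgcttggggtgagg
Awat1, chrX:100572127-100572246, plus strand: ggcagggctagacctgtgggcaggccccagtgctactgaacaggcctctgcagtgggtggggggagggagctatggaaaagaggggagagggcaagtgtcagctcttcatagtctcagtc
Awat2, chrX:100442718-100442837, minus strand: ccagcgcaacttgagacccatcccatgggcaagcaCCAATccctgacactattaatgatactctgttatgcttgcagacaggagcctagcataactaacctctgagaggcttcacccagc
Soat1, chr1:156474332-156474451, minus strand: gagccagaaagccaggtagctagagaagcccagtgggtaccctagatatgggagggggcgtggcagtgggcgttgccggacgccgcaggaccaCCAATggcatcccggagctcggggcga
CCAAT stands in the Awat2 and Soat1 stretches, and not in those of Scd3 and Awat1. Over 250 bases before the start, searched on both strands, CCAAT was in 3 of the 9 windows of these members and in 33.8% of all 32851 windows. The 3 windows belong to 2 of the 7 members. TATAAA (12.4% of all windows), AGGTCA (14%) and TCACNCCAC (1.05%) were in no window of the 7. A letter match is a description and says nothing of binding.

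Nearly the whole set was lower in mice given bleomycin. A gene was called where limma gave an adjusted p below 0.05 over the 17037 genes tested and a fold change above 1.5. After 2 weeks 9 of 10 members were called lower than with saline and 0 higher, where 7.43% of all genes tested were called lower and 9.3% higher. After 4 weeks 9 of 10 were again lower and 0 higher, against 7.37% and 10.5% of all genes. Mgst1 was the exception at both times. The median log2 fold change of the members was −1.04 at 2 weeks and −1.19 at 4 weeks, beside 0.003 and −0.001 for all genes. With 42 mice the counts were 9 and 8. Both comparisons use the same 10 saline mice. In whole skin, fewer gland cells and less RNA per gland cell cannot be told apart.

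**Figure D1:**
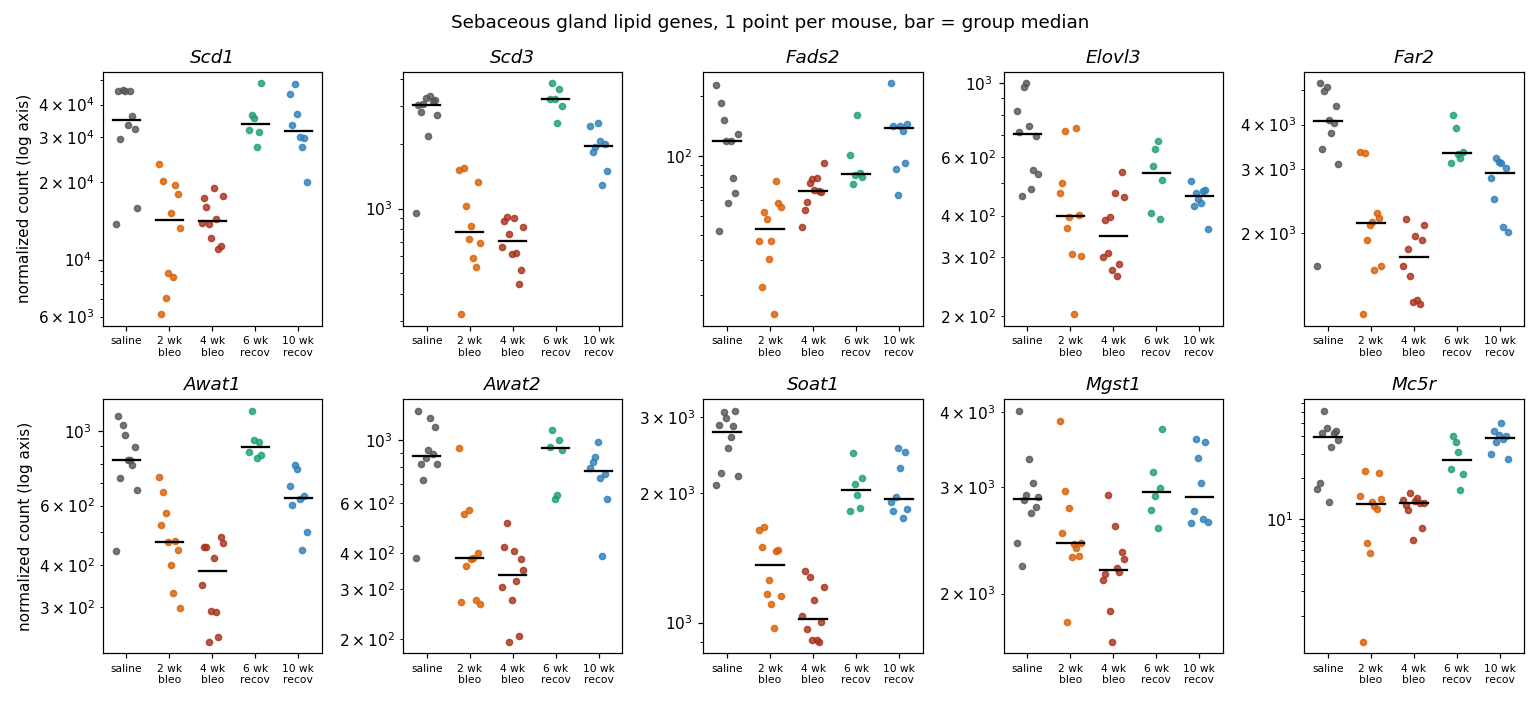
Normalized counts (vertical, log axis with its own range in each panel) of the 10 genes in each of 44 mice, by group; points are mice and bars are group medians. The group medians are lower in both bleomycin groups than with saline in every panel and higher again in recovery. In proportion the fall is smallest for Mgst1, whose medians run from 2186 to 2950.

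Scd1, stearoyl-CoA desaturase 1, makes monounsaturated fatty acids in the gland and in fat (ENSMUSG00000037071.2, chromosome 19, 44394455 to 44407879, minus strand, GRCm38, as are all gene positions here). It was the most abundant member per kilobase of exon, with a saline median of 7117 normalized counts per kilobase. The counts were 13701, 34817 and 45540 (lowest, median and highest mouse) with saline, 6127, 14207 and 23537 after 2 weeks, and 11030, 14095 and 18963 after 4 weeks. Groups overlapped, because saline mice 1 and 10 lay among the treated mice. The fall was 2.5-fold at 2 weeks (log2 fold change −1.32, SE 0.22, limma adjusted p = 4.99e-06) and 2.21-fold at 4 weeks (−1.14, SE 0.22, 5.12e-05). Several mice at 2 weeks were below the lowest mouse at 4 weeks. In recovery the counts were 27469, 33760 and 48374 at 6 weeks and 19926, 31733 and 48106 at 10 weeks, all above every 4-week mouse. The difference from saline was 0.13 (95% interval −0.39 to 0.64) at 6 weeks and 0.04 (−0.43 to 0.51) at 10 weeks.

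Scd3, a desaturase related to Scd1 and best known from the sebaceous gland (ENSMUSG00000025202.7, chromosome 19, 44203269 to 44244016, plus strand), fell furthest. Saline mice had 949, 3038 and 3330 counts, 2-week mice 323, 777 and 1537, and 4-week mice 448, 709 and 911. At 4 weeks every treated mouse was below every saline mouse. At 2 weeks the groups overlapped only through saline mouse 1. The fall was 3.21-fold at 2 weeks (−1.68, SE 0.21, limma adjusted p = 1.47e-08) and 3.78-fold at 4 weeks (−1.92, SE 0.21, 6.28e-10). After 6 weeks of recovery the counts were 2486, 3229 and 3815, and after 10 weeks 1289, 1961 and 2485. The 6-week group was 4.59-fold above the 4-week bleomycin group (2.20, SE 0.24, limma adjusted p = 2.26e-09). All 8 mice at 10 weeks lay below all 6 at 6 weeks, a difference of −0.75 (SE 0.25) that did not pass the test over all genes (limma adjusted p = 0.253). Of the 50-base words in the Scd3 transcript, 6.66% occur in other genes, 4.85% in Scd1 and 3.95% in Scd2, so a small part of its reads cannot be placed with certainty.

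Fads2, the delta-6 desaturase, which in sebum makes sapienate-type fatty acids in humans and polyunsaturated ones elsewhere (ENSMUSG00000024665.7, chromosome 19, 10062765 to 10101746, minus strand), was a low-count member. Its counts were 42.3, 119 and 227 with saline, 16.1, 42.9 and 75.2 after 2 weeks, and 44.3, 67.1 and 92.6 after 4 weeks. Both treated groups overlapped saline. The fall was 2.58-fold at 2 weeks (−1.37, SE 0.25, limma adjusted p = 2.37e-05) but 1.55-fold at 4 weeks (−0.64, SE 0.25, 0.0419). Leaving out saline mouse 1, which had the highest Fads2 count, ended the 4-week call (−0.51, limma adjusted p = 0.105). From 2 to 4 weeks Fads2 moved by 0.73 (SE 0.25, limma adjusted p = 0.0743), the largest upward estimate of the 10. In recovery the counts were 72.1, 81 and 160 at 6 weeks and 64.1, 137 and 231 at 10 weeks.

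Elovl3, an elongase of very long chain fatty acids that lies in the gland and in cold-exposed fat (ENSMUSG00000038754.4, chromosome 19, 46131897 to 46135694, plus strand), had the lowest estimates in both recovery groups. Saline mice had 457, 704 and 998 counts, 2-week mice 202, 398 and 733, and 4-week mice 264, 348 and 539. All groups overlapped. The fall was 1.64-fold (−0.71, SE 0.17, limma adjusted p = 0.000952) and 1.88-fold (−0.91, SE 0.17, 3.62e-05). At 6 weeks of recovery the counts were 391, 538 and 671, and at 10 weeks 364, 458 and 509. The 10-week estimate was −0.58 (SE 0.18, 95% interval −0.95 to −0.22, limma adjusted p = 0.0465), just under the fold change threshold of 0.585. The edgeR and DESeq2 tests on recovered reads called it lower there (both −0.63, adjusted p = 0.0291 and 0.0135). Elovl3 overlaps Pitx3 on the opposite strand, whose mean count was 6.46.

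Far2, fatty acyl-CoA reductase 2, makes the fatty alcohols of wax esters (ENSMUSG00000030303.13, chromosome 6, 148047259 to 148182758, plus strand). It had 1611, 4080 and 5208 counts with saline, 1186, 2123 and 3359 after 2 weeks, and 1268, 1709 and 2181 after 4 weeks. Saline mouse 1 lay among the treated mice at both times and mouse 10 at 2 weeks, and at 4 weeks the other 9 saline mice were above all treated ones. The fall was 1.84-fold (−0.88, SE 0.16, limma adjusted p = 3.19e-05) and 2.29-fold (−1.20, SE 0.16, 1.2e-07). In recovery the counts were 3120, 3329 and 4254 at 6 weeks and 2013, 2926 and 3232 at 10 weeks. At 10 weeks Far2 was −0.50 from saline (SE 0.17, limma adjusted p = 0.0806), and without saline mouse 1, the lowest of its group, it was called lower (−0.63, 0.00693). Ergic2, with a mean count of 551, overlaps Far2 on the other strand, and the strand setting of the counting is not given in the sources used here.

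Awat1 and Awat2, wax synthases that join fatty alcohols to fatty acids, lie near each other on chromosome X (ENSMUSG00000015665.8, 100572251 to 100578205, plus strand, and ENSMUSG00000031220.12, 100402221 to 100442717, minus strand). Awat1 had 440, 821 and 1104 counts with saline, 298, 469 and 729 after 2 weeks, and 237, 384 and 483 after 4 weeks. Awat2 had 385, 877 and 1264, then 265, 384 and 933, then 196, 334 and 510. For both genes saline mouse 1 was the lowest of its group, and at 4 weeks it alone overlapped the treated mice. Awat1 fell 1.7-fold (−0.77, SE 0.15, limma adjusted p = 8.17e-05) and 2.26-fold (−1.17, SE 0.15, 3.97e-08). Awat2 fell 2.12-fold (−1.08, SE 0.20, limma adjusted p = 2.69e-05) and 2.65-fold (−1.41, SE 0.20, 2.49e-07). In recovery Awat1 had 829, 895 and 1148 counts at 6 weeks and 444, 634 and 790 at 10 weeks, so these groups did not overlap. The Awat1 difference between them was −0.56 (SE 0.18, limma adjusted p = 0.234). Awat2 had 621, 932 and 1084 and then 392, 778 and 978.

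Soat1, sterol O-acyltransferase 1, makes the sterol esters of sebum and is also used by macrophages (ENSMUSG00000026600.10, chromosome 1, 156424525 to 156474331, minus strand). It gave the clearest separation. Counts were 2083, 2769 and 3101 with saline, 974, 1359 and 1665 after 2 weeks, and 904, 1019 and 1314 after 4 weeks. All treated mice were below all saline mice at both times, which held for 1.33% of all genes at 2 weeks and 2.21% at 4 weeks. The fall was 1.99-fold (−1.0, SE 0.10, limma adjusted p = 2.05e-11) and 2.49-fold (−1.32, SE 0.10, 6.87e-15). The macrophage genes rose in the same mice: 7 of 9 were called higher at each time (5 and 7 in 42 mice), among them Adgre1 (1.30 and 1.10) and Cd68 (1.32 and 1.29). The share of all genes called higher was 9.3% at 2 weeks and 10.5% at 4 weeks. Soat1 counts were 1811, 2034 and 2473 at 6 weeks of recovery and 1744, 1931 and 2539 at 10 weeks. Both stayed 0.36 below saline on the log2 scale (−0.36, SE 0.11 and 0.10, limma adjusted p = 0.0317 and 0.0265), a 1.29-fold difference below the fold change threshold.

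Mgst1, microsomal glutathione S-transferase 1, is a membrane enzyme that is abundant in gland cells and present in many others (ENSMUSG00000008540.9, chromosome 6, 138140316 to 138156755, plus strand). Its counts were 2218, 2870 and 4017 with saline, 1794, 2422 and 3857 after 2 weeks, and 1666, 2186 and 2913 after 4 weeks. The groups overlapped widely. The 2-week estimate was −0.19 (SE 0.10, limma adjusted p = 0.149). At 4 weeks it was −0.39 (SE 0.10, 0.00248), past the p threshold at a 1.31-fold difference that did not reach 1.5. Recovery mice had 2571, 2950 and 3746 counts at 6 weeks and 2618, 2892 and 3603 at 10 weeks.

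Mc5r, the melanocortin 5 receptor (ENSMUSG00000007480.3, chromosome 18), was the least abundant member, with a saline median of 10.2 normalized counts per kilobase. The counts were 13.3, 40 and 61.6 with saline, 1.3, 13 and 22.6 after 2 weeks, and 7.08, 13.2 and 15.6 after 4 weeks. The lowest value, in 2-week mouse 2, was 1 read, the only value of any member at or under the floor of 3 reads. Saline mice 1, 2 and 6 reached into the treated range of 2 weeks. The fall was 2.89-fold (−1.53, SE 0.28, limma adjusted p = 2.27e-05) and 2.53-fold (−1.34, SE 0.28, 0.000164). In recovery the counts were 16.4, 27.1 and 40.1 at 6 weeks and 27.6, 39 and 49.8 at 10 weeks.

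Per kilobase of exon, the saline medians of the members ran from Scd1 through Mgst1 (1426), Scd3 (855), Awat1 (591), Far2 (558), Awat2 (413), Elovl3 (356), Soat1 (283) and Fads2 (36.1) to Mc5r. Scd1, Mgst1 and Scd3 did not overlap over the saline mice, and neither did Soat1 and Fads2. From Scd3 down to Soat1, and between Fads2 and Mc5r, neighbours in this order overlapped. The exon length counts all annotated exons of a gene together. For Far2 it was 7313 bases, where the longest transcript has 3480, so the order depends on the length used.

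**Figure D2:**
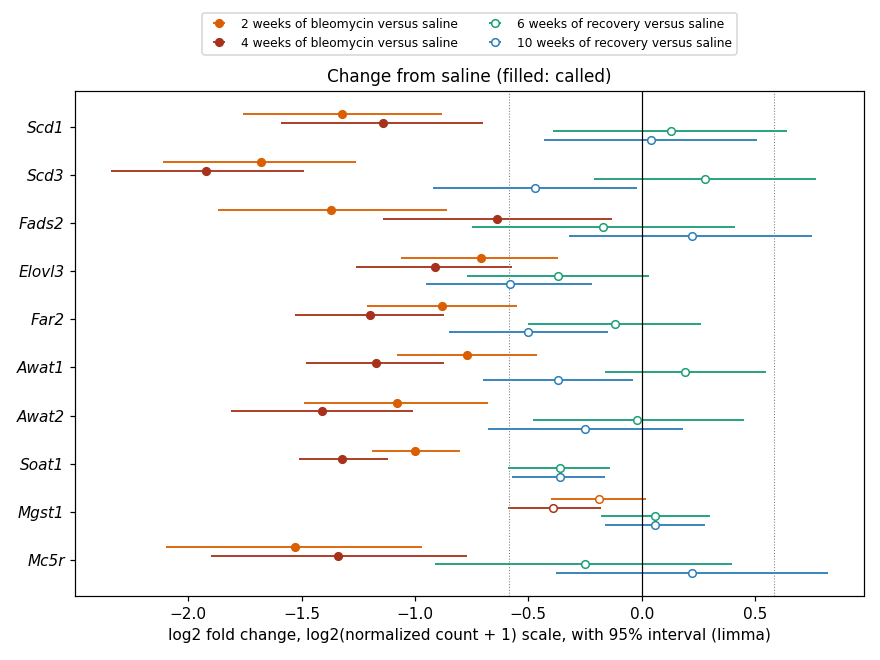
Log2 fold change from saline on the log2(normalized count + 1) scale (horizontal) for each gene (vertical), with 95% intervals from limma; filled points were called and dotted lines mark the fold change threshold. Bleomycin points lie left of the threshold except for Mgst1, and recovery points are open, from −0.58 (Elovl3, 10 weeks) to 0.28 (Scd3, 6 weeks).

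In recovery no member was called different from saline by limma. As the timing of the saline mice is not given, age cannot be told apart from group here. At 6 weeks of recovery it called 0 of 10 (1.71% of all genes were called lower and 3.33% higher), and 1 had an unadjusted p under 0.05. The edgeR and DESeq2 tests called 0 each. At 10 weeks limma called 0 (0.998% lower and 2.05% higher), 5 had an unadjusted p under 0.05, and edgeR and DESeq2 called 1 each, Elovl3. The median log2 fold change of the members was −0.07 at 6 weeks and −0.30 at 10 weeks. Without saline mouse 1, Scd3 (−0.64, limma adjusted p = 0.0463) and Far2 were called lower at 10 weeks. That mouse had the lowest saline count of both genes, so leaving it out could only lower these estimates. The 95% intervals at 6 weeks still reached past the fold change threshold for some genes, such as Scd1 (up to 0.64) and Mc5r (down to −0.91).

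Against 4 weeks of bleomycin, 7 of 10 members were called higher at 6 weeks of recovery, where 4.8% of all genes were called higher. All 7 had groups that did not overlap, as did 4.44% of all genes. They were Scd1 (2.41-fold), Scd3 (4.59-fold), Far2 (2.11-fold), Awat1 (2.58-fold), Awat2 (2.62-fold), Soat1 (1.94-fold) and Mc5r (2.12-fold). Elovl3 (0.54, limma adjusted p = 0.04) and Mgst1 (0.44, 0.00429) passed the p threshold but not the fold change, and Fads2 passed neither (0.47, 0.249). At 10 weeks 8 of 10 were called higher (6.73% of all genes), with Fads2 now 1.81-fold higher and Elovl3 not called (0.33, limma adjusted p = 0.168). Scd1, Scd3, Soat1 and Mc5r had groups that did not overlap (2.66% of all genes).

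The treated times and the recovery times were also set against each other. From 2 to 4 weeks limma called 0 members (0.863% of all genes lower, 1.49% higher). Of the 10, 3 had an unadjusted p under 0.05, and edgeR and DESeq2 called 0. Soat1 was 0.32 lower at 4 weeks (−0.32, SE 0.10, limma adjusted p = 0.0385), below the fold change threshold. Between 6 and 10 weeks of recovery limma called 0 members (0.0704% lower, 0.0176% higher). Scd3 and Awat1 had an unadjusted p under 0.05 and groups that did not overlap, which held for 0.587% of all genes in that direction, and edgeR and DESeq2 called 0.

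Other genes of lipid synthesis fell beside the members, where 7.43% and 7.37% of all genes were called lower at 2 and 4 weeks. Of 25 genes that supply and shape fatty acids, 14 were called lower and 0 higher at 2 weeks, and 15 and 0 at 4 weeks, with medians of −0.61 and −0.71. Fasn, fatty acid synthase, fell 3.05-fold at 2 weeks (limma adjusted p = 2.43e-07). Elovl6, an elongase, fell 2.83-fold at 4 weeks with groups that did not overlap (limma adjusted p = 6.35e-10). Fa2h, which hydroxylates fatty acids, fell at both times (−1.50 and −1.34, limma adjusted p = 4.2e-07 and 3.96e-06). Of 22 sterol synthesis and uptake genes, 16 were called lower and 0 higher at each time, with medians of −0.90 and −0.93. Insig1, a sterol-sensing regulator, fell 2.57-fold and 2.53-fold (limma adjusted p = 1.38e-14 and 2.75e-14), with groups that did not overlap at either time.

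Genes for making and storing esters were mixed. Of 12 tested, 4 were lower and 1 higher at each time. Among all genes, 7.43% and 7.37% were called lower at 2 and 4 weeks, and 9.3% and 10.5% higher. Mogat1, which makes diacylglycerol, fell (−1.44 and −1.85, limma adjusted p = 6.3e-05 and 9.62e-07), as did Cidea, a lipid droplet protein (−1.29 and −1.33, 2.83e-08 and 1.27e-08). Soat2, the second sterol acyltransferase, rose from a low level: 4.83 ± 2.22 counts with saline (SD, n = 10), 15.1 ± 4.78 at 2 weeks and 14.4 ± 3.59 at 4 weeks (1.51 and 1.47, limma adjusted p = 3.5e-07 and 5.95e-07). Soat1 and Soat2 thus moved in opposite directions. Of 16 regulators and gland duct markers, 1 was higher (Nr1h3, a sterol-responsive receptor, 0.68, limma adjusted p = 8.55e-05) and 1 lower (Srebf2, which drives sterol synthesis genes, −0.64, 1.46e-10) at 2 weeks. In 42 mice 0 were higher and 3 lower at that time. Srebf1, which drives fatty acid synthesis genes (−0.54 at 2 weeks and −0.16 at 4 weeks, limma adjusted p = 6.28e-06 and 0.156), and Pparg, needed for gland and fat cell formation (−0.45 and −0.53, 0.00343 and 0.000696), did not reach the fold change. Both were named after their values were seen.

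**Figure D3:**
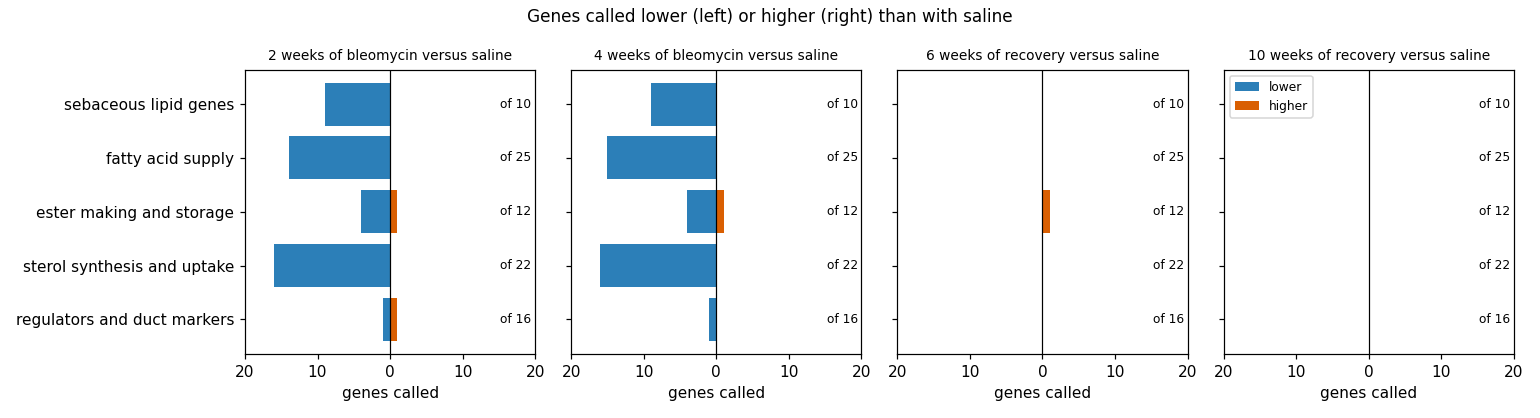
Number of genes called lower (left of 0) or higher (right) than with saline by limma in the sebaceous lipid genes and 4 related lists, for the 4 groups against saline; the number tested stands at the right. Lower calls dominate in both bleomycin panels for the members (9 of 10), fatty acid supply and sterol synthesis, and the recovery panels hold 1 call in all.

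Against saline, the single limma call of these 4 lists in recovery was Soat2 at 6 weeks, at 8.6 ± 2.73 counts (SD, n = 6; 0.78, limma adjusted p = 0.0434). In 42 mice Elovl4 (−0.65, limma adjusted p = 0.000478) and Elovl6 (−0.62, 0.00744), both elongases, were also called lower at 10 weeks. Against 4 weeks of bleomycin, 15 of 25 fatty acid genes and 14 of 22 sterol genes were called higher at 6 weeks (4.8% of all genes). At 10 weeks 13 and 11 were (6.73% of all genes).

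Markers of hair follicle and fat were also lower with bleomycin, against the 7.43% and 7.37% of all genes called lower at 2 and 4 weeks. All 17 hair follicle genes tested were called lower at both treated times, with medians of −7.99 and −7.11. Krt25 and Krt71, keratins of the inner root sheath, fell most (−10.51 and −9.68 at 2 weeks, limma adjusted p = 4.27e-09 and 4.74e-09). Of the 17 genes, 11 had a median at or under 3 reads at 2 weeks and 6 at 4 weeks. The size of these falls therefore depends in part on the count of 1 added before taking logs. Of 14 fat cell genes 6 were lower at each time, with medians of −0.50 and −0.51, led by Lep, leptin (−2.43 and −1.68, limma adjusted p = 2.38e-09 and 5.81e-06). Epidermal genes were lower in 1 and 3 of 13, muscle genes in 0 and 1 of 10 (1 higher at 4 weeks), and fibroblast genes in 3 and 1 of 7.

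Hair follicle level varied among mice of 1 group, and so the members' slope on it within groups was fitted by limma over all genes. Fads2 rose by 0.137 (SE 0.030, limma adjusted p = 0.00138) per log2 unit of hair follicle level, and by 0.125 (0.00284) in 42 mice. No other member passed, where 7.84% of all genes had a positive and 3.75% a negative slope. Between the lowest and highest saline mouse the hair follicle level ran from 6.04 to 13.45 on the mean log2 scale. It ran from 1.56 to 6.0 at 2 weeks, below every saline mouse, and from 1.78 to 7.97 at 4 weeks. The level itself fell with treatment, so estimates with it in the model extend the slope past levels that the groups share. They cannot separate treatment from hair follicle level. With that level in the model, 7 members were called lower at 2 weeks (4.59% of all genes) and 8 at 4 weeks (5.12%). Fads2 was then −0.28 (limma adjusted p = 0.62) at 2 weeks and 0.32 (0.493) at 4 weeks, and Elovl3 lost its 2-week call (−0.62, 0.107). Scd3 was −2.18 and −2.35 and Soat1 −1.23 and −1.52.

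On the fat cell level, 6 members had a positive slope past the threshold (11% of all genes did): Scd1 (1.087), Scd3 (0.787), Far2 (0.642), Awat2 (0.648), Mgst1 (0.336) and Mc5r (0.913). In 42 mice only Scd1 (0.921, limma adjusted p = 0.00238) and Mgst1 (0.39, 0.0412) passed (2.42% of all genes). The Fads2 slope was −0.001 (SE 0.265). On the mean log2 scale the median fat cell level was 10.88 with saline, 10.22 at 2 weeks and 10.29 at 4 weeks. Estimates with this level in the model cannot separate treatment from fat cell level, and were fitted on all 44 mice only. With the fat cell level in the model 7 members were called lower at each time (7.75% and 8.11% of all genes). Far2 (−0.46) and Awat1 (−0.55) then fell short of the fold change at 2 weeks, and Scd1 (−0.57) at 4 weeks, when Fads2 also lost its call (−0.64, limma adjusted p = 0.0743). Scd3 (−1.17 and −1.50), Awat2 (−0.67 and −1.07), Soat1 (−0.84 and −1.19), Elovl3 and Mc5r were called at both times.

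**Figure D4:**
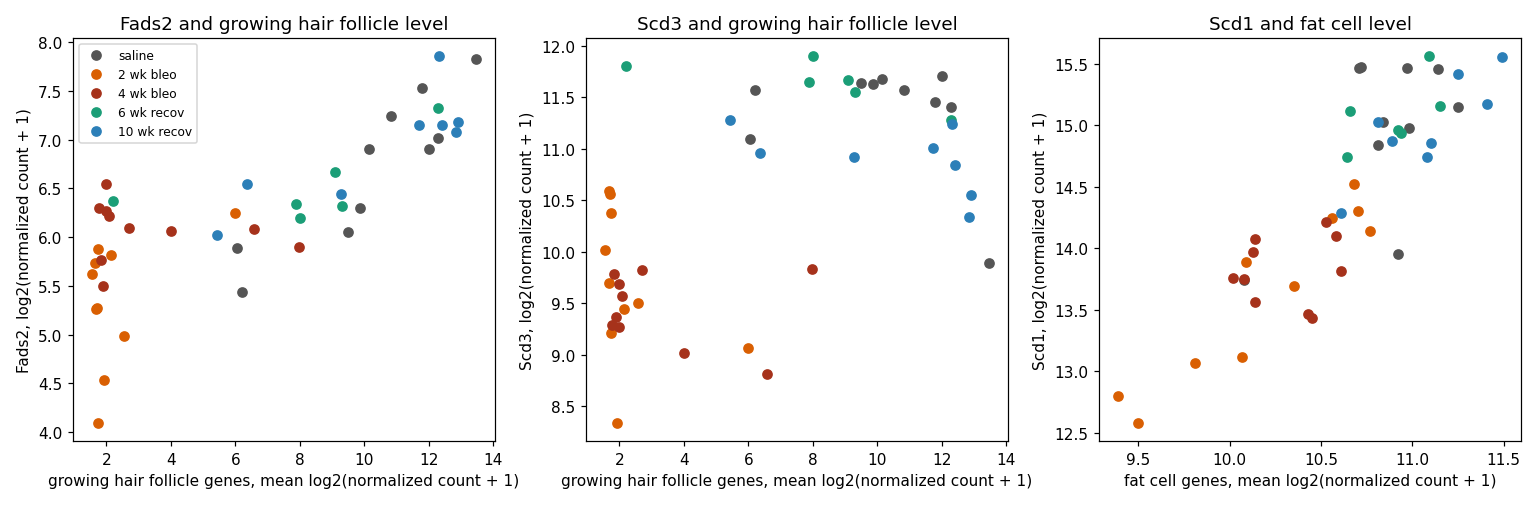
Left and centre, Fads2 and Scd3 against the mean log2 level of growing hair follicle genes; right, Scd1 against that of fat cell genes; all axes are log2(normalized count + 1) and each point is 1 mouse, coloured by group. Fads2 is higher in mice with more hair follicle RNA, bleomycin mice reach a hair follicle level of at most 7.97 and lie low for Scd3, as does saline mouse 1 at the far right, and Scd1 climbs with fat cell level.

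The members were partly alike among mice. After group means were taken off, the 45 pairs of members had Pearson r from −0.5 to 0.81 across 44 mice, with a median of 0.48 (0.39 in 42 mice). The points share each mouse's library and tissue mix, so these are descriptions. Far2 had the highest median with the others (0.68) and Fads2 the lowest (−0.18, from −0.5 to 0.27). The genes outside the set most like its mean were Elovl5 (r = 0.89), Secisbp2l (0.88), Rdh11 (0.87) and Elovl6 (0.87), followed by Pnpla5 (0.84), 4930449A18Rik, Paqr7 and Ces1d (0.83 each), and Hsd3b6 and A4gnt (0.81 each). With 42 mice Rdh11 came first (0.89), and Ces1d, Hsd3b6 and A4gnt ranked 13, 17 and 11. For single members the most similar gene was Acss2 for Scd1 (0.89), Elovl5 for Scd3 (0.93), Cald1 for Fads2 (0.88), Acat2 for Elovl3 (0.77), Elovl4 for Far2 (0.9) and Cers5 for Awat1 (0.87). It was Hamp2 for Awat2 (0.81), Tmem164 for Soat1 (0.87), Cdo1 for Mgst1 (0.76) and Adcy9 for Mc5r (0.82). In 42 mice another gene came first for 5 of the 10: Ces4a for Elovl3 (0.77), Rdh11 for Far2 (0.9), the member Far2 for Awat1 (0.89), Ech1 for Mgst1 (0.8) and Zbtb4 for Mc5r (0.7).

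The paralogs were set against each other within each mouse, a choice made after their values were seen. The log2 ratio of Scd3 to Scd1 was −3.59 ± 0.43 with saline (SD, n = 10), −3.96 ± 0.61 at 2 weeks and −4.37 ± 0.15 at 4 weeks. All 10 mice at 4 weeks were below all saline mice. The 4-week difference was −0.78 (two-sided permutation test with 100000 resamples, p = 2e-05, the smallest it can give, adjusted p = 0.00016 over 8 comparisons), and the 2-week difference −0.36 (permutation test, adjusted p = 0.231). In recovery the ratio was −3.44 ± 0.31 at 6 weeks (n = 6, exact permutation test, adjusted p = 0.472) and −4.1 ± 0.31 at 10 weeks (n = 8, difference −0.51, exact permutation p = 0.00562, adjusted p = 0.0225). The ratio of Awat2 to Awat1 did not pass the test against saline in any group (permutation tests, adjusted p = 0.156 to 0.389).

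**Figure D5:**
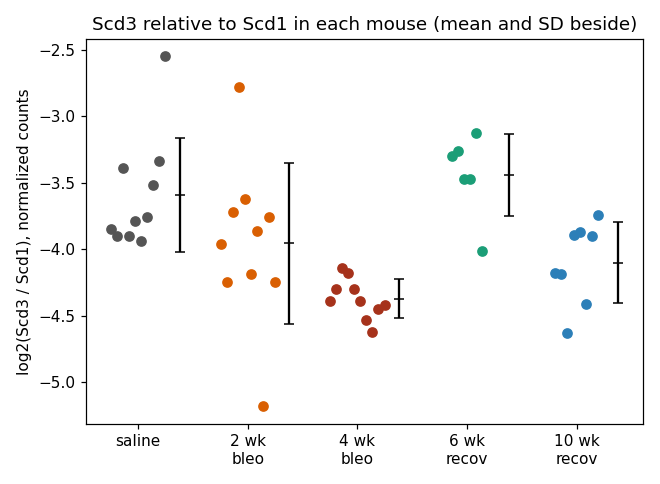
Log2 ratio of Scd3 to Scd1 normalized counts (vertical) in each mouse by group, with the group mean and SD beside the points. The 10 mice at 4 weeks lie between −4.62 and −4.14, below every saline mouse, and the 6-week recovery mice lie at −4.01 to −3.13.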

How the data were processed

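Skin RNA of 44 mice was sequenced. The authors aligned reads to mm10 with STAR 2.4.0, per the labels, and deposited a table of counts divided by 1 DESeq2 1.12.3 size factor per mouse, a signal called normalized count here. How reads were counted (tool, strand setting, annotation) is not given in the sources used here. Whole reads were recovered from the deposited signal by dividing by the value of 1 read: 100.00% of values were whole within 0.01 read, and 14600 of 43411 genes had no read. Identifiers were matched to GENCODE M21 symbols (98.9%). No column was left without a sample.

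Groups follow the labels. log2(normalized count + 1) of the 17037 genes with a mean above 3 was fitted with limma 3.58.1 (R 4.3.3, mean-variance trend), all 5 groups in 1 fit, with Benjamini-Hochberg adjustment over all genes. Fold changes understate those of low genes. DESeq2 1.42.0 and the quasi-likelihood test of edgeR 4.0.16 were also run on the recovered reads. Scripts were tested on simulated data. Slopes used the mean log2 level of a list, with group in the model. Ratios were compared by two-sided permutation, exact where a group held under 10 mice. The floor is 3 reads and covers counting error only. Python 3.11.15 was used with scipy 1.17.1. Promoters are from RefSeq.

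The members and lists were chosen with earlier results of these data known, so counts over them are descriptions. Named genes are all members, and in each other list the 2 called genes with the largest change in each direction. Some genes that this rule names are not reported here. Replicates are separate mice, counts of 2 mice of a group never differed by as little as sampling noise (chi-square over degrees of freedom of at least 5.32), and the shared replicate numbers do not pair them. Alternatives were a pseudocount of 0.1, no filter, at least 10 counts in 6 mice, TMM, only the groups compared, a replicate block, no fold change threshold, and 42 mice. Leaving out saline mouse 1 or 2-week mouse 2 alone, and the tissue levels in the model, were added after seeing the data.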

Additional observations from a re-analysis of the deposited data

Results flagged for a closer look

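Saline mouse 1 lay far below the other saline mice for 3 of the 10 genes, by the gap to the next mouse relative to the range of the group. Its Scd3 count was 949, where the next saline mouse had 2180. For Far2 it had 1611 against 3104, and for Awat2 385 against 723. Of 50 sets of a gene and a group, 3 were flagged in this way, and chance flags about 1 in 20. The same mouse had the highest hair follicle level of its group (13.45) and the lowest fat cell level (10.08). Its sums of epidermal, muscle, fibroblast and macrophage genes were also the lowest of the group. The part of these tissue levels in its values was not tested.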

How the results depend on the processing

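No called member changed sign under the alternatives that added no tissue level. With the hair follicle level in the model the 4-week estimate of Fads2 went from −0.64 to 0.32 (limma adjusted p = 0.493). That estimate extends the slope past most levels that the 2 groups share. Estimates near 0 of members that were not called changed sign, such as Scd1 in recovery against saline (0.13 and 0.04, and −0.01 and −0.1 in 42 mice) and Mc5r from 2 to 4 weeks (0.20, and −0.06 in 42 mice). The 9 calls at 2 weeks and the 7 and 8 calls of recovery against 4 weeks of bleomycin were the same in number under each alternative that kept the fold change threshold and added no tissue level. At 4 weeks 8 members were called with no filter, in 42 mice and without saline mouse 1, where Fads2 was lost (limma adjusted p = 0.0641, 0.0894 and 0.105). Against saline, 10 weeks of recovery gave 1 call with TMM, edgeR or DESeq2, 1 with the hair follicle level and 3 with the fat cell level in the model, and 2 with 42 mice or with no fold change threshold, against 0. Leaving out 1 of the 2 mice named above gave 0 to 2. With no fold change threshold, 6 weeks of recovery and the 4 against 2 weeks comparison gave 1 call each, Soat1. Between the recovery times 1 member, Scd3, was called in a fit of only the groups compared (limma adjusted p = 0.0229) and in 42 mice (0.0478), against 0. Slopes on the fat cell level passed for 2 members in 42 mice, against 6, and for 4 without saline mouse 1. The cause of these changes was not tested.

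Leaving out 2-week mouse 2 changed no call of a comparison. With the replicate block the number of members called was 9 at 2 weeks, 9 at 4 weeks and 0 at both recovery times. Same-numbered mice correlated from −0.3 to 0.38 in deviations from the group means, with at most 3 of 10 pairs over 0.1, so the numbers pair no mice. Mc5r and Fads2 rest on few reads, and the 6-week group on 6 mice.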
